A study of Mus musculus with 10 samples.

Results

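The genes described here are the voltage-gated and potassium ion channel genes measured in mouse hippocampus, with their auxiliary subunits. Members were chosen by symbol, as every gene whose symbol begins with Kcn, Hcn or Cacn, or with Scn followed by a digit. A further condition was a level of at least 1 CPM (the count scaled to the library total) in 5 or more of the 10 libraries. Kcne2, Kcnj13 and Kcnj8, which mark choroid plexus and pericytes, were left out by name. Of 138 such symbols, 26 fell below the level and 109 of the 21956 genes in the table were members. The level condition used values of both groups together and not the contrast between them. Of the members, 104 reached 1 CPM in all 10 libraries, 5 did so in fewer, and 0 reached it in 1 group alone. Just inside the condition stood Kcne4, with a median of 1.27 CPM, Cacna2d4, with 1.3 CPM, and Kcnj14, with 1.66 CPM, each past the minimum in 8 libraries. Just outside it stood Kcnh6, with a median of 0.98 CPM and 4 libraries past the minimum, Kcnk5, with 0.905 CPM and 4 libraries, and Kcnrg, with 0.894 CPM and 2 libraries.

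All 10 mice had the genotype labelled hMapt, which stands for mice with the human gene for the microtubule-binding protein tau, and were 6 months old. In the circTau6 group, 5 mice received a viral vector of the AAV type (adeno-associated virus) that carried circTau6, a circular RNA of the tau gene, and tissue was taken after 80 days. The 5 mice labelled control were injected with a control according to the extraction protocol, and which control was used is not given in the labels used here. The promoter of the vector, the injected site, the sex of the mice and whether the mouse tau gene was kept are likewise not given there. Each hippocampal library has its own title and was taken as 1 mouse, and the labels used here do not say whether animals were pooled. The comparison asks whether transcripts of ion channels differ in level when circTau6 is delivered.

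Ion channels of these families set how neurons fire. Voltage-gated sodium channels open first in an action potential, voltage-gated potassium channels end it, and calcium channels turn it into calcium entry that drives transmitter release and dendritic signalling. Inward rectifiers, two-pore-domain channels and HCN channels hold and shape the resting potential, and auxiliary subunits set how much of each channel reaches the membrane and how fast it opens and closes. In the hippocampus, pyramidal cells, granule cells, interneurons and glia each use their own mixture of these subunits.

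The upstream sequences of 3 genes are shown first, because these genes had the lowest unadjusted p-values among the members and 2 of them are neighbours. They are Kcnj2 and Kcnj16, which encode inward rectifier subunits and lie 38.2 kb apart on chromosome 11, and Kcnab2, which encodes the Kv beta2 subunit. Each stretch holds the 250 bases before a RefSeq start in GRCm38.p6, the first listed start for Kcnj16 and Kcnab2. Capitals mark CG dinucleotides, counted by a search for the letters CG, which read the same on both strands. The window of Kcnj2 lies at chr11:111065914-111066163 on the plus strand, that of Kcnj16 at chr11:110967783-110968032 on the plus strand, and that of Kcnab2 at chr4:152477550-152477799 on the minus strand.
Kcnj2: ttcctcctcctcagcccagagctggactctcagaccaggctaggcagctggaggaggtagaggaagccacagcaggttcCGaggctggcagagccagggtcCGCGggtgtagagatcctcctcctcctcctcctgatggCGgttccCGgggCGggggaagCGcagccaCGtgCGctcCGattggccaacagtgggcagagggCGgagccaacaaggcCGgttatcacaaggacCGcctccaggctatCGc
Kcnj16: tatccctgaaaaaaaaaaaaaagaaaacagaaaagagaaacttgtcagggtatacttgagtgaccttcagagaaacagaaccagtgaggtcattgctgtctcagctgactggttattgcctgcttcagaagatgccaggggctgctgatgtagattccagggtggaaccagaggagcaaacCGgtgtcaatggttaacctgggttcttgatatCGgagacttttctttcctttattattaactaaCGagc
Kcnab2: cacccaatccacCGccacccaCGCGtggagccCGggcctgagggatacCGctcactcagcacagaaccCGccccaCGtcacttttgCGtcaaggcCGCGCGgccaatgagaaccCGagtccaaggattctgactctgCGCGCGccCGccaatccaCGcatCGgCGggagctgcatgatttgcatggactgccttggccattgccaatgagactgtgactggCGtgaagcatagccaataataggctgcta
The Kcnj2 window held 14 CG dinucleotides, a number reached by 29.4% of the 32851 listed windows, whose median was 6. The Kcnj16 window held 3, a number reached by 71%, and the Kcnab2 window held 20, reached by 17.9%. The windows of the other listed starts held 7, 4 and 1 for Kcnj16 and 5 and 3 for Kcnab2. The Kcnab2 window shown lies inside the gene body given below. The neighbouring inward rectifier genes differed in CG content at the starts shown. No promoter share is given over all members: 76 of the 109 (69.7%) had a listed start, too few for such a check, which is void.

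Total counts per library ran from 14762952 to 17647138, so that 3 counts in the shallowest library equal 0.203 CPM, a floor that covers counting error only. Markers of hippocampal neurons were present in all 10 libraries, with sums of 265 to 333 CPM for CA1 neurons, 700.0 to 809.5 CPM for CA3 neurons and 371 to 487 CPM for dentate granule cells. Summed choroid plexus markers were 72.7 CPM in control replicate 2 and 64.1 CPM in circTau6 replicate 5, against 1886 to 5713 CPM in the other 8 libraries. The microglia list was the only marker list with more than 1 gene at an unadjusted p under 0.05 in edgeR, with 4 of 5, and its sum was 288 to 313 CPM in control and 323 to 342 CPM in circTau6 libraries. The part of microglia in the values of the members was not tested. P-values measure only the spread between these libraries, since the labels do not state that they came from separate animals.

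Levels between genes were compared in TPM, which is scaled to transcript length. The mean TPM of the members over the 10 libraries ran from 0.606 to 389, with a median of 24.7. Of the 109, 78 had at least 10 TPM and 15 had at least 100 TPM. The 10 highest members held 36.4% of all TPM on members. Kcnab2 had the highest level, with 389 TPM ± 27.3 (SD, n = 10). Other abundant auxiliary subunits were Scn3b, the beta3 subunit of sodium channels, with 189 TPM ± 13.6 (SD, n = 10), and Kcnip2, a partner of Kv4 channels, with 146 TPM ± 5.62 (SD, n = 10). At the low end, Cacna2d4, an alpha2delta subunit, had 0.606 TPM ± 0.207 (SD, n = 10). Members together took 0.975% to 1.12% of the counts in a library.

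**Figure D1:**
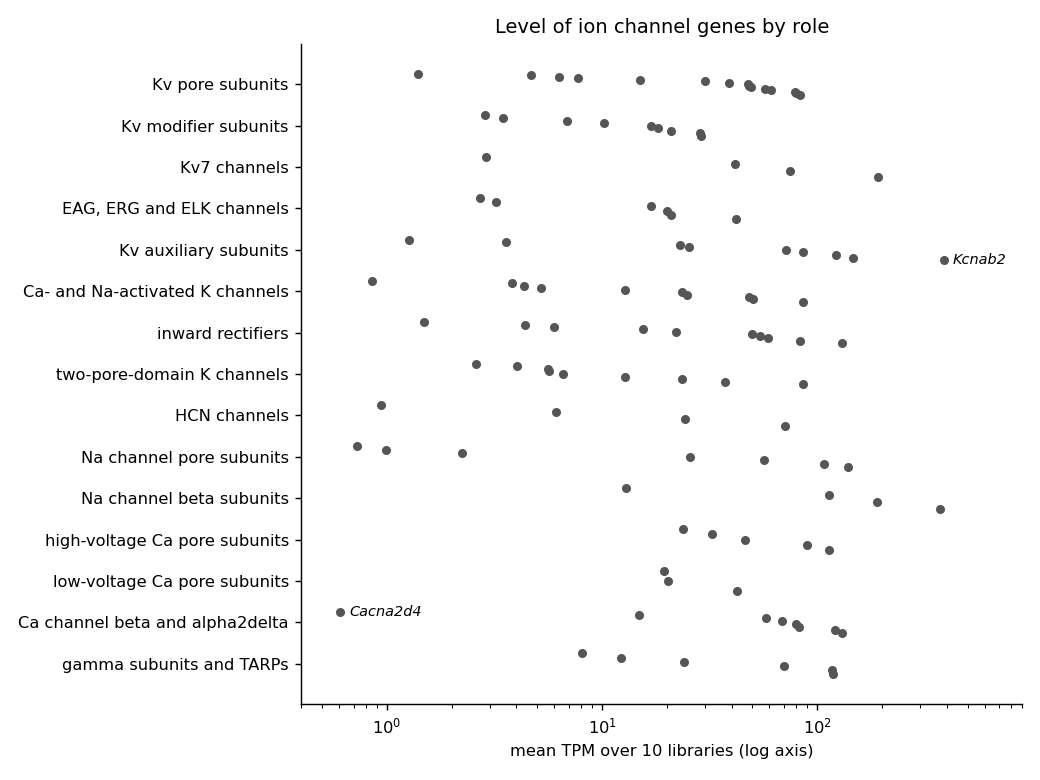
Mean TPM over the 10 libraries (log axis) for each of the 109 members, 1 point per gene, grouped by role. Kcnab2 at 389 TPM stands highest and Cacna2d4 at 0.606 TPM lowest.

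In the edgeR quasi-likelihood test over all 14396 genes tested, 0 of the 109 members were called at a Benjamini-Hochberg adjusted p under 0.05, against 0% of all genes. The lowest adjusted p of a member was 0.981. At an unadjusted p under 0.05, edgeR gave 4 members with lower values after circTau6, Kcnj2, Kcnab2, Kcnj16 and Kcna1, against 1.85% of all genes, and 0 members with higher values, against 2.58%. These 4 were 3.67% of the members. DESeq2 called 0 members, against 0.0766% of 18275 genes, and gave 5 lower members at an unadjusted p under 0.05, against 1.73%, with the same 4 among them. Limma voom with quality weights called 0 members, against 0% of genes, and at that threshold gave 4 lower members, Kcnab2, Kcnj2, Kcna1 and Kcnc2, against 2.24%, and 1 higher member, Kcnk6, against 2.92%. For 0 members did every circTau6 library lie below every control library in CPM, against 0.208% of all genes, and for 0 did every one lie above, against 0.632%. After scaling by the trimmed mean of M-values (TMM), the numbers were again 0 below, against 0.368%, and 0 above, against 0.472%. With 1 library left out at a time, edgeR gave 2 to 8 lower and 0 to 2 higher members at that threshold: 2 lower without control replicate 2, control replicate 4, circTau6 replicate 3 or circTau6 replicate 4, and 8 lower without circTau6 replicate 5. The 2 higher members were Kcnk6 and Kcns1 without control replicate 2, and Kcnt1 and Kcnk3 without circTau6 replicate 1, with Kcns1 and Kcnt1 named after their values were seen. The shares over all genes at that threshold with 1 library left out are not given here, so these counts have no background beside them. In this bulk tissue, fewer cells of a type and less RNA per cell cannot be told apart.

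Log2 fold changes below give circTau6 minus control from the edgeR fit. Of the 109 members, 72 (66.1%) had a negative log2 fold change, against 50.1% of all genes tested. The differences were small. The median over the members was -0.04 and the quartiles were -0.08 and 0.02, against a median of -0.00 and quartiles of -0.06 and 0.07 over all genes. The members ranged from -0.42 for Kcnj2 to 0.35 for Kcne4, an auxiliary subunit near the level minimum. For 78 members the log2 fold change lay within 0.1 of 0, and the median SE was 0.08. Without circTau6 replicate 3 the median was -0.01, with 65 negative members, and without control replicate 2 it was -0.02, with 64.

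**Figure D2:**
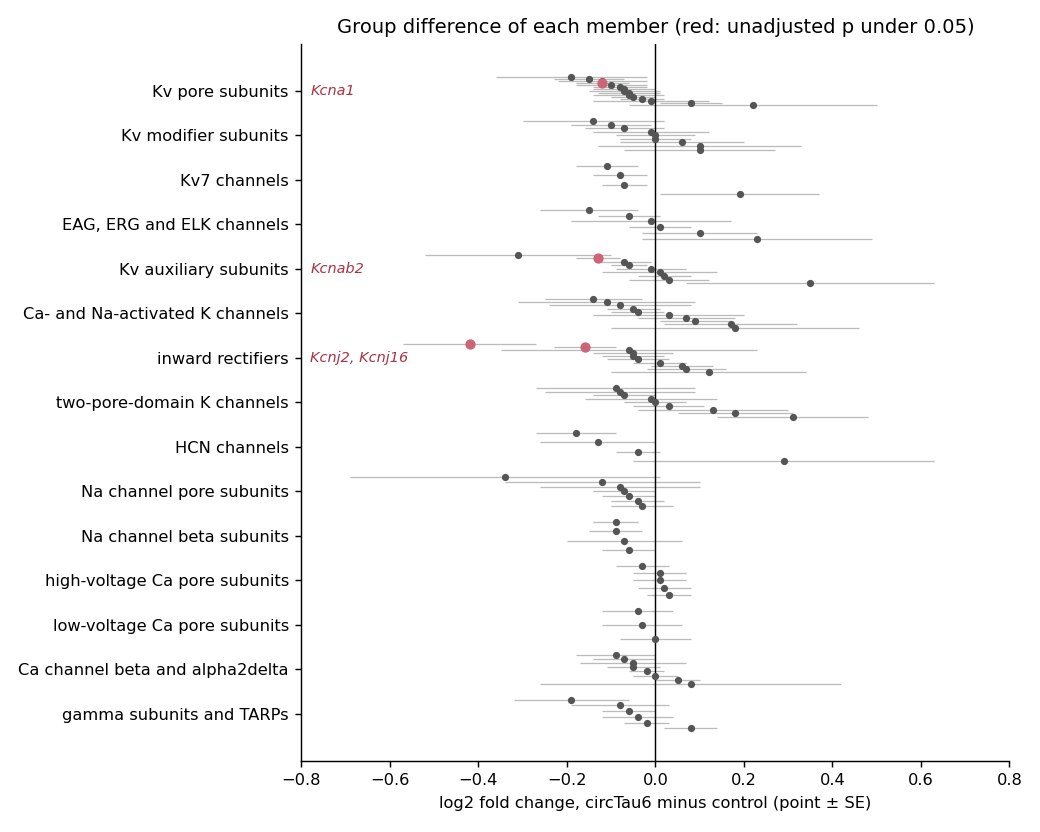
Log2 fold change (circTau6 minus control, edgeR) of each member with its SE, grouped by role. Points lean to the left of 0 in the Kv pore and sodium channel groups. The 4 named genes in red, Kcna1, Kcnab2, Kcnj2 and Kcnj16, had an unadjusted p under 0.05 and adjusted p-values of 0.981.

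Inward rectifiers, which carry potassium best near the resting potential, had 10 members of 15 symbols, 6 negative and 4 positive, with a median of -0.05. Kcnj2, which encodes Kir2.1, is the pore subunit of a strong inward rectifier. It lies on chromosome 11 from 111066164 to 111076821 in GRCm38. Its values were 12.9, 21.3, 13.1, 14.3 and 12.5 CPM in control replicates 1 to 5 and 12.7, 11.4, 9.95, 9.81 and 12.3 CPM in circTau6 replicates 1 to 5. Control replicate 2 stood apart as the highest of the 10, and the lowest control value, that of replicate 5, lay below the highest circTau6 value, that of replicate 1. The means were 14.8 ± 3.69 CPM in control against 11.2 ± 1.33 CPM in circTau6 mice (SD, n = 5 each), and the log2 fold change was -0.42 ± 0.15 (SE), with an unadjusted edgeR p of 0.0119. Without control replicate 2, which was also poor in choroid plexus markers, the log2 fold change was -0.25 and the unadjusted edgeR p 0.0376. Kcnj2 had an unadjusted p under 0.05 in all 23 settings tried, the 22 alternatives included, and Kcnab2 in 20. These settings share most of their libraries. The authors' deposited table lists Kcnj2 with a log2 fold change of -0.406, a p-value of 0.0363 and an FDR of 0.987.

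Kcnj16, which encodes Kir5.1, a subunit that forms channels with Kir4.1 in astrocytes, lies on chromosome 11 from 110968033 to 111027968. It had 24.7, 25.3, 24.8, 20.7 and 24.7 CPM in the control and 20.8, 21.2, 21, 23 and 22.9 CPM in the circTau6 replicates. In control replicate 4 the value was below all the others, and the remaining 4 control values were above every circTau6 value. The means were 24 ± 1.89 CPM in control against 21.8 ± 1.07 CPM in circTau6 mice (SD, n = 5 each) or -0.16 ± 0.07 (SE) on the log2 scale, with an unadjusted edgeR p of 0.0388. Kcnj10, the gene of its partner Kir4.1, had 178, 188, 168, 192 and 186 CPM in control and 156, 173, 197, 167 and 208 CPM in circTau6 mice. The control range lay within the circTau6 range, and the log2 fold change was -0.04 ± 0.07 (SE). Summed astrocyte markers were 3953 to 4454 CPM in control and 3856 to 4572 CPM in circTau6 libraries.

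The inward rectifiers that G proteins open, which bring slow inhibition in pyramidal cells, were near 0. Kcnj3 (GIRK1) had a log2 fold change of -0.05 ± 0.09 (SE) at 129.8 TPM ± 10.2 (SD, n = 10). Kcnj6 (GIRK2) had -0.05 ± 0.07 (SE) on the log2 scale at 49.7 TPM ± 4.01 (SD, n = 10). Kcnj9 (GIRK3), picked after its values were seen, had 0.06 ± 0.07 (SE) at 54.4 TPM ± 5.08 (SD, n = 10). Kcnj14, an inward rectifier outside this G protein group and close to the level minimum, had -0.06 ± 0.29 (SE).

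**Figure D3:**
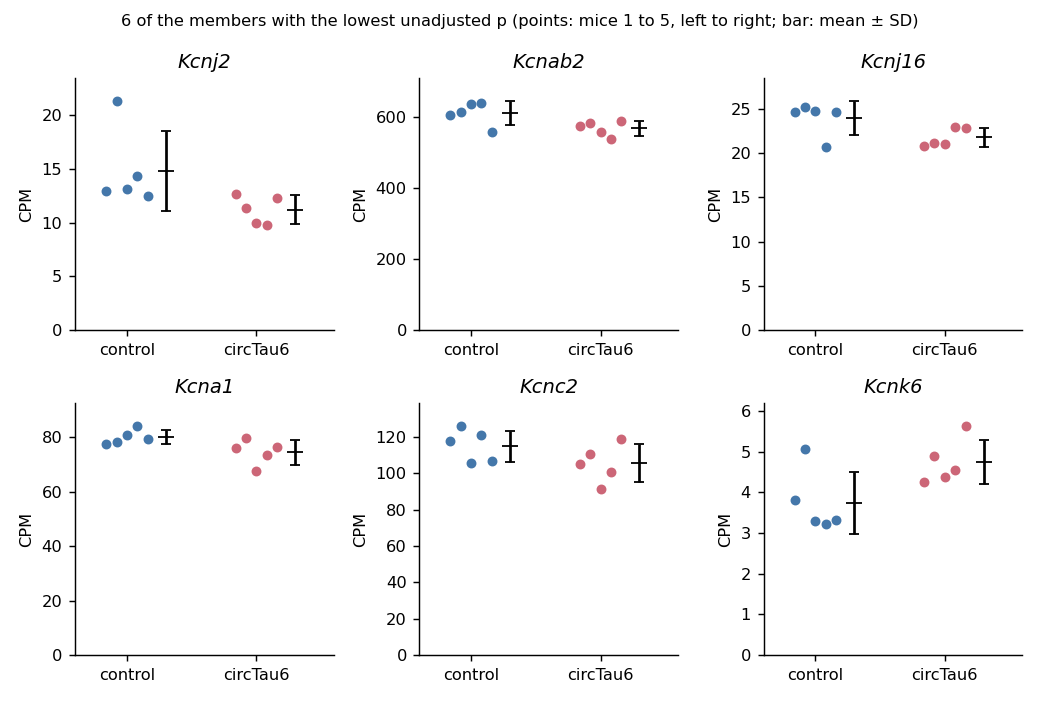
CPM of each library for 6 of the members with the lowest unadjusted edgeR p. Points are mice 1 to 5 from left to right, and the bar beside them is the group mean with its SD (n = 5 per group). The groups overlap in every panel, and a single control library stands high for Kcnj2 at 21.3 CPM and low for Kcnj16 at 20.7 CPM.

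Voltage-gated potassium channel pores of the Kv1 to Kv4 families, which repolarise the membrane, had 15 members of 17 symbols, of which 13 were negative and 2 positive, with a median log2 fold change of -0.07. Kcna1, which encodes Kv1.1 of axons, lies on chromosome 6 from 126640397 to 126646384. Its values were 77.5, 78.3, 80.9, 84.1 and 79.5 CPM in control and 76.1, 79.9, 67.5, 73.4 and 76.3 CPM in circTau6 mice. The circTau6 mice had 4 of 5 values below every control value, with replicate 2 inside the control range. The log2 fold change was -0.12 ± 0.06 (SE), with an unadjusted edgeR p of 0.0451. Kcna2 (Kv1.2), its usual partner, had -0.07 ± 0.08 (SE) on the log2 scale at 57.1 TPM ± 5.48 (SD, n = 10).

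Kcnc2, which encodes Kv3.2 of fast-spiking interneurons, had 118, 126, 106, 121 and 107 CPM in control and 105, 111, 91.3, 101 and 119 CPM in circTau6 mice. In 3 circTau6 mice the value was below every control, in replicates 2 and 5 it was inside the control range, and the log2 fold change was -0.15 ± 0.08 (SE). Its relative Kcnc1 (Kv3.1) had a smaller negative log2 fold change, -0.07 ± 0.07 (SE). Summed interneuron markers were 691 to 793 CPM in control and 697 to 808 CPM in circTau6 libraries. Kcnd2 (Kv4.2), the A-type channel of pyramidal cell dendrites, had 166, 179.8, 175, 178 and 152 CPM in control and 171, 165, 149, 165 and 163 CPM in circTau6 mice, a log2 fold change of -0.08 ± 0.06 (SE). Of the circTau6 values, 4 lay within the control range and that of replicate 3 just below it.

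Kv modifier subunits, silent on their own and active in mixed channels, had 9 members of 10 symbols, 5 negative and 4 positive, with a median of -0.00. Kcnv1 (Kv8.1) had 50.6, 60.1, 56.5, 47 and 50.0 CPM in control and 54.3, 48.3, 31.6, 47.5 and 61.9 CPM in circTau6 mice. Its circTau6 values held both the lowest and the highest of the 10, and the log2 fold change was -0.14 ± 0.16 (SE). Kcnf1 (Kv5.1) had -0.10 ± 0.09 (SE) on the log2 scale at 28.5 TPM ± 3.28 (SD, n = 10).

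Kv7 channels, which carry the M-current that limits repetitive firing, had 4 members of 5 symbols, 3 negative and 1 positive. Kcnq3, a subunit of the M-channel, had 366, 393, 353, 369.9 and 345 CPM in control and 382, 362, 291, 335 and 350.1 CPM in circTau6 mice. The lowest value was that of circTau6 replicate 3, and the groups overlapped. Log2 fold changes were -0.11 ± 0.07 (SE) for Kcnq3 and -0.08 ± 0.06 (SE) for Kcnq5, a further M-channel subunit, with adjusted edgeR p-values of 0.981 each.

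EAG, ERG and ELK channels had 6 members of 8 symbols, 3 negative and 3 positive. Kcnh7, an ERG channel that slows firing, had 103, 129, 105, 128 and 108 CPM in control and 101, 113, 82.5, 115 and 114 CPM in circTau6 mice. The lowest value was again in circTau6 replicate 3, the groups overlapped, and the log2 fold change was -0.15 ± 0.11 (SE). Kcnh3, an ELK channel, had 0.01 ± 0.07 (SE) at 41.8 TPM ± 3.13 (SD, n = 10).

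Kv auxiliary subunits had 9 members of 12 symbols, 5 negative and 4 positive, with a median of -0.01. Kcnab2, the most abundant member, binds the cytoplasmic face of Kv1 channels and lies on chromosome 4 from 152390742 to 152477871. It had 604, 614, 637, 639 and 557 CPM in control and 574, 581, 558, 537 and 589 CPM in circTau6 mice. Control replicate 5 was lower than 4 of the 5 circTau6 mice, and the other 4 control values were above every circTau6 value. The means were 610.2 ± 33.3 CPM in control against 568 ± 20.8 CPM in circTau6 mice (SD, n = 5 each) or -0.13 ± 0.05 (SE) on the log2 scale, with an unadjusted edgeR p of 0.0206. The gene body overlaps that of Nphp4 on the opposite strand, which had a mean of 18 CPM. The libraries were strand-specific by the labels, but whether the counting used strand is not given there.

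KChIP proteins are calcium-binding partners of Kv4 channels. Kcnip2, at 146 TPM ± 5.62 (SD, n = 10), had 123, 124, 132, 132 and 131 CPM in control and 127, 116, 127, 128 and 127 CPM in circTau6 mice, with 1 low value in circTau6 replicate 2, and its log2 fold change was -0.06 ± 0.04 (SE). Kcnip3, which is also known as the transcriptional repressor DREAM, had 0.02 ± 0.06 (SE). Kcne1l and Kcne4, small single-pass subunits, had the lowest and highest log2 fold changes of the auxiliary group, -0.31 ± 0.21 (SE) and 0.35 ± 0.28 (SE). Both lay at a few CPM, with group means of 2.46 and 2.01 CPM for Kcne1l and of 1.16 and 1.5 CPM for Kcne4 in control and circTau6 mice.

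Potassium channels opened by calcium or sodium, which carry the afterhyperpolarisation, had 10 members of 12 symbols, 5 negative and 5 positive. Kcnma1, the pore of the BK channel, had 377, 436, 368, 393 and 402 CPM in control and 385, 418, 342, 378 and 412 CPM in circTau6 mice, and 4 of the 5 circTau6 values lay within the control range. Its log2 fold change was -0.05 ± 0.06 (SE), and that of Kcnmb4, the neuronal BK beta4 subunit, was 0.09 ± 0.08 (SE). Kcnn2, which encodes the small-conductance channel SK2, had -0.04 ± 0.06 (SE). Kcnt1, a sodium-activated channel picked after its values were seen, was the only member besides Kcnj2 with a p-value under 0.05 in the authors' deposited table, at a log2 fold change of 0.252, a p-value of 0.0412 and an FDR of 0.987. That makes 1 lower and 1 higher member, while the authors' deposited table holds, of all 21956 genes, 36 (0.164%) lower and 636 (2.9%) higher at this threshold. In the edgeR fit Kcnt1 had 0.17 ± 0.15 (SE) and an unadjusted p of 0.286.

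Two-pore-domain channels, the leak channels of the resting potential, had 9 members of 14 symbols, 4 negative and 5 positive. Kcnk6 (TWIK-2) had the lowest unadjusted edgeR p among members with higher values, 0.078. Its values were 3.82, 5.05, 3.29, 3.23 and 3.32 CPM in control and 4.25, 4.89, 4.38, 4.54 and 5.62 CPM in circTau6 mice. In 4 of 5 control mice it was below every circTau6 mouse, with control replicate 2 inside the circTau6 range, and the log2 fold change was 0.31 ± 0.17 (SE). Kcnk3 (TASK-1) had 0.18 ± 0.13 (SE) at 5.59 TPM ± 0.861 (SD, n = 10). The more abundant Kcnk1 (TWIK-1), at 85.7 TPM ± 7.3 (SD, n = 10), had -0.07 ± 0.07 (SE), and Kcnk2 (TREK-1), at 37.1 TPM ± 3.34 (SD, n = 10), had 0.00 ± 0.07 (SE).

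HCN channels, opened by hyperpolarisation and modulated by cyclic AMP, had 4 members, 3 negative and 1 positive. Hcn2, a subunit found widely in the brain, had 88.7, 92.3, 87.5, 96.3 and 94.7 CPM in control and 90.2, 86, 95.4, 86.4 and 95.8 CPM in circTau6 mice. The groups overlapped, and the log2 fold change was -0.04 ± 0.05 (SE) at 70.9 TPM ± 3.28 (SD, n = 10). Hcn4, picked after its values were seen because its SD over the 10 libraries was the highest of all members, 0.58 on the log2 CPM scale, had 1.62, 1.06, 1.87, 3.7 and 2.13 CPM in control and 1.98, 1.4, 4.5, 2.51 and 2.51 CPM in circTau6 mice. Its highest values, in control replicate 4 and circTau6 replicate 3, were in the libraries with the most Tcf7l2, a thalamic transcription factor, at 11.7 and 15.3 CPM against 2.56 to 7.65 CPM in the others. Summed markers of the thalamus were likewise highest there, 186 and 181 CPM against 95.8 to 157 CPM elsewhere, and 0 of the 5 thalamic genes were at 0 in any library. Among the other thalamic genes, Prkcd and Slc17a6 were also highest in those libraries. Rora was highest in circTau6 replicate 5, at 74.8 CPM. Lef1 was highest in circTau6 replicate 3, but its 5.81 CPM in control replicate 4 lay below the 6.05 CPM of control replicate 5. The part of such tissue in the Hcn4 values was not tested.

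All 7 sodium channel pore subunits and all 4 beta subunits had negative log2 fold changes, with medians of -0.07 and -0.08. With 1 library left out at a time the number of negative sodium channel genes was 9 to 11 of 11. It was 9 without circTau6 replicate 3, without control replicate 5 and without circTau6 replicate 1. Scn2a (Nav1.2), found in the initial segments and axons of principal cells, had 397, 432, 383, 397 and 405 CPM in control and 401, 425, 344, 405 and 416 CPM in circTau6 mice. Scn8a (Nav1.6), the main channel of mature initial segments and nodes, had 448, 484, 473, 474 and 439.9 CPM in control and 464, 494, 417, 424 and 465 CPM in circTau6 mice. For both genes circTau6 replicate 3 was the lowest library. The other circTau6 values lay within the control range for Scn2a, and within it or on either side for Scn8a. Log2 fold changes were -0.04 ± 0.06 (SE) for Scn2a and -0.06 ± 0.06 (SE) for Scn8a. They were -0.03 ± 0.07 (SE) for Scn1a (Nav1.1 of interneurons) and -0.07 ± 0.07 (SE) for Scn3a (Nav1.3). Each was about the size of its SE or smaller.

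Among the beta subunits, cell adhesion molecules that bind the pore, Scn2b had 207, 218, 209, 235 and 230.3 CPM in control and 192, 207, 209.5, 203 and 237 CPM in circTau6 mice, with a log2 fold change of -0.09 ± 0.06 (SE). CircTau6 replicate 5 held the highest Scn2b value of the 10. Scn3b had -0.06 ± 0.06 (SE), about the size of its SE.

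High-voltage calcium channel pores had 5 members of 7 symbols, 1 negative and 4 positive, with log2 fold changes from -0.03 to 0.03. Cacna1a, the P/Q-type channel of synaptic terminals, had 154, 179, 147, 156 and 153 CPM in control and 153, 174, 159, 153 and 167 CPM in circTau6 mice. Cacna1b, the N-type channel of terminals, had 0.01 ± 0.06 (SE), Cacna1c, the L-type channel that couples to gene transcription, 0.03 ± 0.05 (SE), and Cacna1e, the R-type channel, -0.03 ± 0.06 (SE) on the log2 scale. In TPM, Cacna1e was highest with 114 TPM ± 8.62 (SD, n = 10), followed by Cacna1a with 90.0 TPM.

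The 3 low-voltage, or T-type, pores had log2 fold changes of -0.03 ± 0.09 (SE) for Cacna1g, -0.00 ± 0.08 (SE) for Cacna1h and -0.04 ± 0.08 (SE) for Cacna1i. Beta and alpha2delta subunits, which bring the pores to the membrane, had 8 members, 5 negative and 3 positive. Cacna2d1, the gabapentin-binding subunit, had 306, 352, 329, 331 and 316 CPM in control and 332, 335, 264, 323 and 331 CPM in circTau6 mice. Only circTau6 replicate 3 lay outside the control range, at the low side, and the log2 fold change was -0.07 ± 0.07 (SE). Cacnb3 had -0.02 ± 0.04 (SE) at 131 TPM ± 5.21 (SD, n = 10). Gamma subunits, most of which are better known as partners of AMPA-type glutamate receptors, had 6 members of 8 symbols, 5 negative and 1 positive. Cacng5 had 15.7, 10.2, 10.6, 11 and 16.1 CPM in control and 12.5, 10.6, 11.1, 10.7 and 11.5 CPM in circTau6 mice. Control replicates 1 and 5 were highest and the remaining 8 values lay close together, with a log2 fold change of -0.19 ± 0.13 (SE). Cacng2 (stargazin) had -0.08 ± 0.11 (SE), Cacng7 -0.02 ± 0.05 (SE) and Cacng8 -0.06 ± 0.06 (SE).

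Members did not vary alone: libraries stood high or low for many of them together. After TMM scaling, the median over the members of a library's log2 CPM less the member's mean was -0.02, 0.10, -0.03, 0.05 and 0.01 in control replicates 1 to 5. It was -0.02, 0.06, -0.08, -0.05 and 0.07 in circTau6 replicates 1 to 5, while the same median over all genes was 0.00 to 0.01. TMM scaling centres most genes near 0 in each library, so the median over all genes was largely set by the scaling. Control replicate 2 and circTau6 replicate 5, from opposite groups, were highest, and circTau6 replicate 3 was lowest. CircTau6 replicate 3 held the lowest value of 32 of the 109 members and circTau6 replicate 4 that of 16. Control replicate 2 held the highest value of 27 members and circTau6 replicate 5 that of 22. The same counts over all genes are not given here, so these counts are not shown to be particular to the members. The summed CPM of 6 neuronal markers was 5269, 5625, 5075, 5268 and 5241 in the control and 5035, 5278, 5025, 5190.4 and 5566 in the circTau6 replicates. It was highest in control replicate 2 and circTau6 replicate 5 and lowest in circTau6 replicate 3. The single markers did not all follow the sum. Of the 6, only Syt1 was lowest in circTau6 replicate 3, at 1631 CPM, and Tubb3 was highest there, at 156 CPM. Snap25 was lowest in circTau6 replicate 1, at 1881 CPM, and Rbfox3 highest in circTau6 replicate 2, at 198 CPM. Both libraries with the highest member values were the ones poor in choroid plexus markers. Without this pair of libraries, the median log2 fold change of the members was -0.05, with 72 negative.

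**Figure D4:**
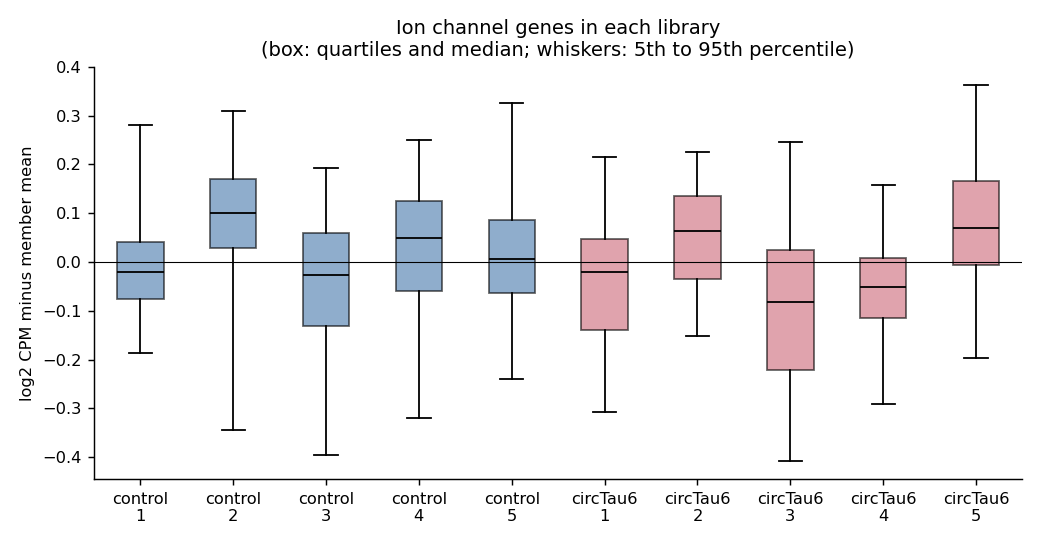
For each library, log2 CPM less the member's mean over libraries, over the 109 members, with boxes for the quartiles and median and whiskers from percentile 5 to 95. Control replicate 2 at 0.10 and circTau6 replicate 5 at 0.07 are highest and circTau6 replicate 3 at -0.08 is lowest.

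The low position of circTau6 replicate 3 was strongest among members with a low transcript GC content. The same values over all genes are not given here, so this is not shown to be particular to the members. Across the 109 members, the deviation in that library had a Pearson correlation of 0.46 with transcript GC content, against -0.25 to 0.12 in the other 9 libraries, a description across genes that share a library. Members were split into low, middle and high GC content. In the low-GC group, 37 genes at 36.6% to 48.6%, the median deviation in circTau6 replicate 3 was -0.26. It was -0.04 in the middle and -0.05 in the high-GC group. The low-GC group also had the largest number of negative members, with 32 of 37 negative and a median log2 fold change of -0.07. The middle group had 21 of 36 negative and a median of -0.03, and the high-GC group had 19 of 36 and -0.00. Without circTau6 replicate 3, the low-GC group had 25 of 37 negative members and a median of -0.02. With GC content modelled in each library, 30 of the 37 were negative, with a median of -0.04. Over all 109 members the same correction gave 78 negative and a median of -0.04, against 72 and -0.04 without it, and 11 of the 11 sodium channel genes were negative.

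**Figure D5:**
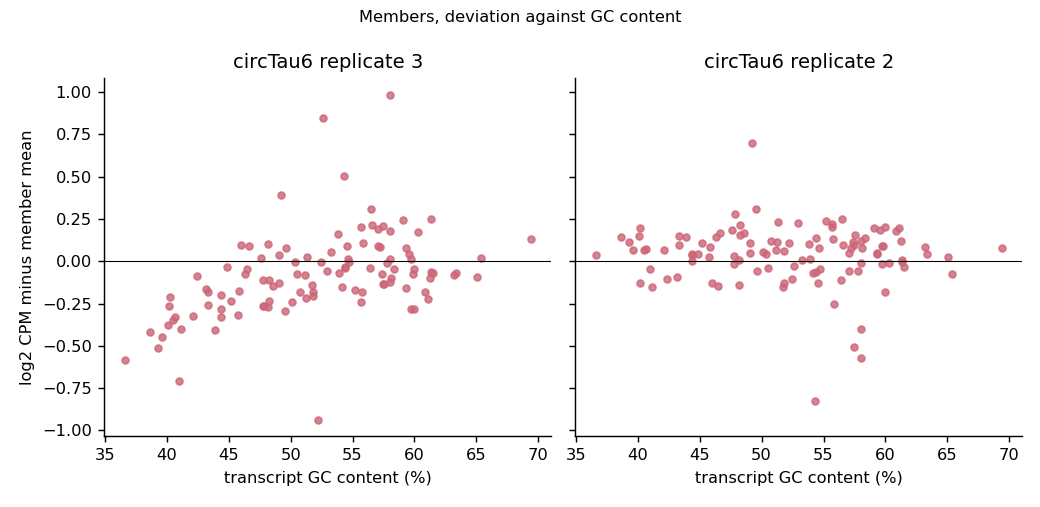
Deviation of each member from its mean over libraries (log2 CPM) against transcript GC content (percent), in circTau6 replicate 3 and, for comparison, in circTau6 replicate 2, 1 point per member. Most low-GC members lie below 0 in circTau6 replicate 3, where the correlation across 109 genes is 0.46.

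The members are long genes. In GENCODE M21, which uses GRCm38 and to which all 109 were matched by gene ID, the median gene length was 59.5 kb, against 25.7 kb over 14373 tested genes with a value. Of the members, 41 (37.6%) exceeded 100 kb, against 15.9% of those genes. Median transcript length was 4.09 kb against 3.26 kb, and median transcript GC content 52.6% against 50.1%. The members lay on 20 chromosomes, and 13 neighbouring pairs were less than 200 kb apart. Of these pairs, 11 had log2 fold changes of the same sign. Kcnj16 and Kcnj2 were such a pair, with -0.16 and -0.42, and the sodium channel genes of chromosome 2 gave others, such as Scn3a and Scn2a, 53.1 kb apart, with -0.07 and -0.04. Kcna5, likewise named after its value was seen, and Kcna1, 105 kb apart on chromosome 6, went opposite ways, with 0.22 and -0.12. Some of the neighbouring pairs share a gene, and 72 of the 109 members were negative. Whether neighbours share a sign more often than other members was not tested. In all, 14 members overlapped the body of another gene in the table.

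Genes that work with the channels, such as ankyrins that anchor them, FGF homologous factors that bind sodium channels and DPP subunits of Kv4 channels, were read from the same fit. Of 36 listed, 35 were in the table and 32 passed the filter on low counts. Of these, edgeR called 0, against 0% of all genes. At an unadjusted p under 0.05, 2 were lower, against 1.85% of all genes, and 0 higher, against 2.58%. Negative log2 fold changes numbered 26 and positive ones 6, with a median of -0.05, while 50.1% of all genes were negative. Fgf11, a member of that FGF group, had 34.5 ± 1.14 CPM in control against 31.4 ± 1.85 CPM in circTau6 mice (SD, n = 5 each), which is -0.16 ± 0.06 (SE) on the log2 scale at an unadjusted edgeR p of 0.02. Akap7, a kinase anchoring protein that binds L-type calcium channels, had 37.3 ± 2.06 CPM against 33.2 ± 4.23 CPM (SD, n = 5 each), with -0.19 ± 0.08 (SE) and an unadjusted edgeR p of 0.0384. For Fgf11 every circTau6 value, 29.1 to 33.1 CPM, lay below every control value, 33.3 to 35.9 CPM, as for 0.208% of all genes. The lowest Akap7 value, 26.8 CPM, was that of circTau6 replicate 3. Rem2, a GTPase that lowers calcium current, had -0.14 ± 0.09 (SE), and Cnih2, an AMPA receptor partner, -0.10 ± 0.05 (SE).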

How the data were processed

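RNA of 10 hippocampal libraries was measured, 5 control and 5 circTau6, grouped by the treatment label. Per the labels' protocols, the libraries were strand-specific, read in pairs and made after depletion of ribosomal RNA. StringTie 1.3.1 and RSEM are named, without a role, per the submitters' processing notes. The sources used here do not give the aligner, the build or the annotation. The table of the authors holds, per the file headers, a count and a TPM (abundance scaled to transcript length) for each of 21956 genes and each library. They also deposited a log2 fold change, equal to the log2 of circTau6 mean TPM over control mean TPM, and a p-value and FDR, whose test is not given there. In the deposited counts, 108 entries were 0 beside a TPM above 0, so that the counts, which entered the tests without change, may be rounded estimates. No row lacked a gene ID.

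CPM is the count scaled to the library total. Counts were fitted over all genes with edgeR 4.0.16 in R 4.3.3, by filterByExpr, TMM scaling and the robust quasi-likelihood F test, and p-values adjusted by Benjamini-Hochberg over all genes tested (threshold 0.05). SEs were taken from the log2 fold change and the F statistic. Alternatives were DESeq2 1.42.0, limma 3.58.1 (voom with quality weights, and log2(TPM + 1)), other scalings and filters, a replicate block, a GC correction and leaving out libraries. The code was tested on simulated data. Genes were matched by ID to GENCODE M21 (21852 of 21956), and coordinates are those of GRCm38, which may not be the authors' build.

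The members and gene lists were chosen with earlier results of these data known. Members named are the 2 with the highest mean TPM in each role, the 20 with the lowest unadjusted p, a panel of well-known channel genes, and the 3 on each side of the level condition. Of the genes that work with the channels, the 4 with the lowest p are named. Other genes are said to have been picked after their values were seen, or are neighbours, overlaps, markers or genes left out by name. Some members that this rule names are not reported here.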

Additional observations from a re-analysis of the deposited data

Results flagged for a closer look

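In 12 of the 142 groups of 5 values examined for the named members and partner genes, 1 library stood apart from the other 4 (Dixon's test at the 95% level), and chance gives about 1 in 20. Control replicate 2 accounted for 4 of them, all high. Its Kcnj2 value was 21.3 CPM against 12.5 to 14.3 CPM in the other controls, and its Cacna1a value 179 CPM against 147 to 156 CPM. Its Kcnk2 value was 47.7 CPM against 39 to 41.4 CPM, and its Kcne1l value 3.11 CPM against 2.2 to 2.38 CPM.

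CircTau6 replicate 5 was low for Kcne1l, at 1.35 CPM against 2.09 to 2.25 CPM, and for Cacna1c, at 147 CPM against 151 to 152 CPM. Control replicate 1 was low for Cacna1c, at 131 CPM against 148 to 150.4 CPM, and for Kcnj6, at 48.5 CPM against 54.5 to 56.2 CPM. Kcnj16 was low in control replicate 4, at 20.7 CPM against 24.7 to 25.3 CPM. Cacna1b was high in circTau6 replicate 2, at 163 CPM against 131 to 139 CPM, and Kcnip2 was low there, at 116 CPM against 127 to 128 CPM. Cacna2d1 was low in circTau6 replicate 3, at 264 CPM against 323 to 335 CPM.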

How the results depend on the processing

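No member was called under any of the 22 alternatives, and the lowest adjusted p of a member ran from 0.726 to 1. Over all genes, edgeR called 0. The number was 2 with library totals only, 2 without a count filter, 14 with DESeq2, 2 with GC correction, 3 without control replicate 2 and circTau6 replicate 5 together, and 0 to 4 with 1 library left out. Lower members at an unadjusted p under 0.05 numbered 4. There were 2 with library totals only, 2 with limma on log2(TPM + 1), and 2 to 8 with 1 library left out. Higher members numbered 0, against 1 with limma voom, 1 with limma on log2(TPM + 1), 1 without control replicate 2 and circTau6 replicate 5 together, and 0 to 2 with 1 library left out. Of these fits, only the main edgeR fit, DESeq2 and limma voom have their shares over all genes at this threshold given above. With 1 library left out, 64 to 81 members were negative and their median was -0.06 to -0.01. The causes were not tested.

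Signs changed for members near 0. With limma on log2(TPM + 1), Cacna1a was -0.01, Cacna1b -0.00, Cacna1h 0.01, Kcnj3 0.05 and Kcnn2 0.01. With GC correction, Cacna1a was -0.01, Cacna1b -0.00, Kcnh3 -0.00, Kcnip3 -0.01 and Kcnk2 -0.01. Cacna1h was 0.01 with upper quartile scaling and 0.02 with library totals only. Cacna2d4 was -0.34 with limma voom. Kcnk2 was -0.00 without a count filter and -0.00 with DESeq2. With 1 library left out, ranges that crossed 0 were -0.02 to 0.06 for Cacna1a, -0.05 to 0.03 for Cacna1b, -0.01 to 0.04 for Cacna1c, -0.08 to 0.02 for Cacna1e, -0.09 to 0.03 for Cacna1g and -0.05 to 0.06 for Cacna1h. Others were -0.22 to 0.28 for Cacna2d4, -0.05 to 0.00 for Cacng7, -0.02 to 0.06 for Kcnh3, -0.04 to 0.05 for Kcnip3, -0.10 to 0.00 for Kcnj10 and -0.19 to 0.07 for Kcnj14. The rest were -0.09 to 0.03 for Kcnj3, -0.04 to 0.06 for Kcnk2, -0.08 to 0.02 for Kcnn2, -0.08 to 0.01 for Scn1a and -0.07 to 0.02 for Scn2a.

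The replicate numbers gave no evidence of pairing: same-numbered libraries correlated at 0.1, 0.128, 0.136, -0.0626 and -0.0764 in their deviations from the group means, and 0 of 5 control libraries matched its own number best. With the replicate block, edgeR called 4 genes and 0 members, with 5 lower members at an unadjusted p under 0.05, and Cacna2d4 was -0.00. Counts limit the low members: at the shallowest depth 3 counts equal 0.203 CPM.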

Other observations

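The 3 channel genes left out by name differed more between libraries than the members did. Kcne2, a subunit of choroid plexus epithelium, ranged from 0.352 to 32.6 CPM, and Kcnj13, an inward rectifier of the same epithelium, from 0.61 to 54 CPM. For both, control replicate 2 and circTau6 replicate 5 were lowest. Kcnj8, an inward rectifier subunit of pericytes, ranged from 1.55 to 3.52 CPM.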
